A study of Oryctolagus cuniculus with 4 samples.

Results

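The genes of oxidative phosphorylation on the rabbit array were taken by description and symbol. A probe was a member when its description named NADH dehydrogenase, succinate dehydrogenase, ubiquinol-cytochrome c reductase, cytochrome c oxidase or ATP synthase, or when its gene symbol began with NDUF, UQCR or COX and a number. This gave 207 of the 43603 probes, and they stood for 62 genes of the 9766 named genes tested on the array. Of the 62 genes, 20 encode subunits of complex I, 6 of complex III, 12 of complex IV and 7 of complex V, and 17 encode assembly factors. The rule found 0 structural subunits of complex II and 0 genes of mitochondrial DNA, so all members were nuclear genes. A gene is given here by its probe with the highest mean signal.

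RNA from 4 pools of parthenote blastocysts was compared with RNA from 4 pools of in vivo fertilised blastocysts, all of New Zealand White rabbits and recovered from the uterus at 6 days. Parthenotes came from ovulated oocytes that were activated by electrical pulses followed by cycloheximide and 6-DMAP (a kinase inhibitor), and that were then transferred into the oviducts of recipient does. Fertilised embryos came from does that had been artificially inseminated. Each of the 4 arrays held 1 parthenote pool labelled with Cy3 and 1 fertilised pool labelled with Cy5, and the dyes were swapped on 0 arrays, so dye and group cannot be told apart. All values below are log2 ratios of parthenote over fertilised unless a signal is named. Each pool mixed several whole embryos, so fewer cells of a type and less RNA per cell cannot be told apart either.

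Oxidative phosphorylation is carried out by protein complexes in the inner mitochondrial membrane. Complex I takes electrons from NADH and complex II takes them from succinate. Both pass them by way of ubiquinone to complex III, and cytochrome c carries them on to complex IV, which reduces oxygen. The protons pumped by complexes I, III and IV drive complex V, the ATP synthase. Most subunits are encoded in the nucleus, and assembly factors help to build each complex without being part of it. The mammalian embryo raises its oxygen consumption when it forms a blastocyst.

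The probe sequences below show what was measured at the ends of the differences and in an isoform pair. All were 60 bases long and are written 5′ to 3′. The probes of NDUFA1 and NDUFB11, the subunits with the largest positive ratios, read in a frame that ended in a stop codon, in capitals, at the probe's last bases. The array files place the NDUFA1 probe on chrX:68572291-68576350, a span of 4060 bases that includes intron sequence, and the NDUFB11 probe on chrX:32261600-32261659 on the minus strand, in a genome build that they do not name.
NDUFA1: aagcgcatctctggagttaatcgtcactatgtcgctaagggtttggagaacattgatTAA
NDUFB11: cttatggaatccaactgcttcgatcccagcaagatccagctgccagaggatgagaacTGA
The probes of COX6A1 and COX6A2, the widely expressed and the muscle isoform of the same complex IV subunit, ended in a stop codon too and could be set against each other without a gap. They were identical at 41 of 60 bases (68.3%), which are in capitals.
COX6A1: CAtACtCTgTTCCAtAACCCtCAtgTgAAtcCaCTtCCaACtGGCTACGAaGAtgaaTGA
COX6A2: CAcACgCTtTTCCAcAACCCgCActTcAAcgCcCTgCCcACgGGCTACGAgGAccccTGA
COX10, the member with the most negative ratio past the test, NDUFAF3, the assembly factor with the largest positive ratio, and a UQCRB probe that did not follow the brightest UQCRB probe had a frame without a stop codon through the whole probe. They were placed on chr19:5629564-5694171 on the minus strand, chr9:16651655-16651829 and chr3:111985204-111985263 on the minus strand.
COX10: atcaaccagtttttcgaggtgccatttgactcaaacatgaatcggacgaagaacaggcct
NDUFAF3: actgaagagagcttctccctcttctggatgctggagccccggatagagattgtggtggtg
UQCRB: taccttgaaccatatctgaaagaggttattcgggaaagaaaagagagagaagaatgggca

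Of the 62 OXPHOS genes, 42 (67.7%) had a mean ratio above 0, with slightly more signal in parthenotes. Of all named genes with signals well above background, 48.6% did. Of the 62 genes, 20 were higher and 3 were lower in parthenotes at an adjusted p under 0.05 in limma, and 39 did not pass the test. The background was 11.8% of all named genes called higher and 12.3% called lower, against 32.3% and 4.84% of the members. Counted by probe, 59 of the 207 member probes were higher and 5 were lower, beside 9.53% and 11.1% of all probes tested. The changes were small, since the largest fold among the genes called higher was 1.58 and 0 of the called genes reached a log2 ratio of 1 in size. The median log2 ratio of the members was 0.13, and their medians on arrays 1 to 4 were 0.10, 0.11, 0.12 and 0.10. The median of all named genes was 0.00. The counts depended on which array was left out. Without array 1, 2, 3 or 4, limma called 16, 5, 4 or 4 members higher and 4, 0, 0 or 0 lower. Of the named genes with signals well above background, 8.94%, 2.99%, 3.91% and 1.83% were then higher and 9.57%, 2.79%, 3.91% and 1.66% lower.

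OXPHOS probes were among the brightest on the array, and bright probes pass the test more often. All members except NDUFA4L2 (61 genes) gave signals that the scanner software called well above background, for both dyes and on each of the arrays. Of the 6731 named genes that met this condition, 14.8% were higher and 14.5% were lower. A stricter comparison, added after the signals of the members were seen, kept genes with a mean log2 signal of at least 13. Of the 41 members this bright, 17 were higher and 1 was lower, and their median log2 ratio was 0.18. Of the 457 other named genes this bright, 18.6% were higher and 16.4% were lower, with a median of 0.02. Of the 21 dimmer members, 3 were higher and 2 were lower. The median of the bright members stayed above that of the other bright genes under each alternative that corrects the dyes along the signal range. With median centring of each array, which does not, the medians were -0.81 and -0.82, and 2 of 62 members had a mean ratio above 0, of which NDUFA4L2 was not well above background.

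**Figure D1:**
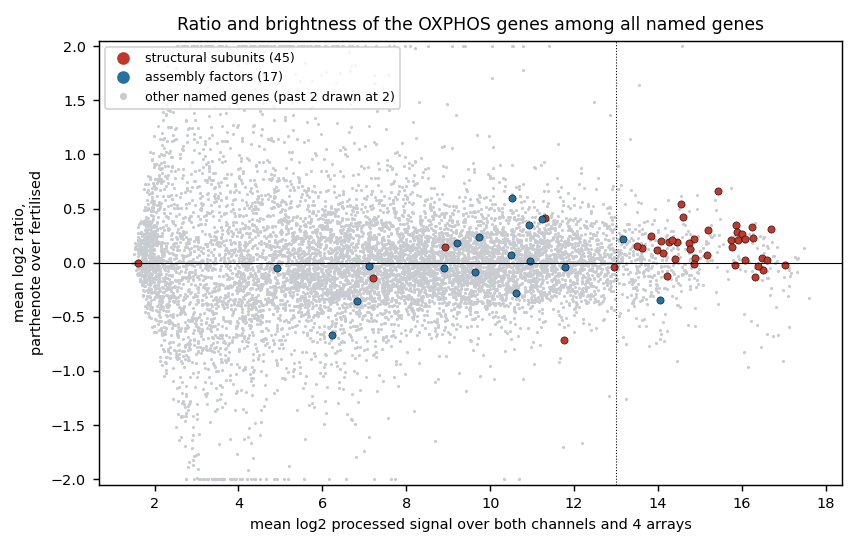
Mean log2 ratio of parthenote over fertilised (vertical axis) against the mean log2 processed signal of the probe (horizontal axis) for the 45 structural subunits in red, the 17 assembly factors in blue and the other named genes in grey. Right of the dotted line at 13, most red points lie above 0, while the other genes spread evenly around it.

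**Figure D2:**
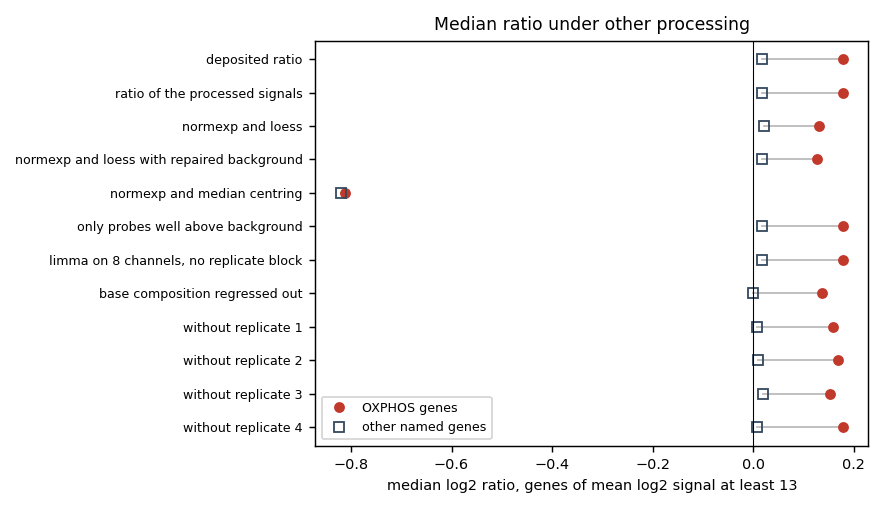
Median log2 ratio of the 41 OXPHOS genes (red circles) and of the 457 other named genes (open squares) with a mean log2 signal of at least 13 under the deposited ratio and other processing. The red circle lies right of the square in every row, by 0.01 with median centring and by 0.11 to 0.17 in the others.

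Complex I, the largest set, held the largest number of called genes, while the share called higher was larger in complex III (50%). Of the 20 complex I subunits, 9 were higher (45%), 0 were lower, and 18 had a mean ratio above 0 (90%). Of all named genes well above background, 14.8% were higher, 14.5% were lower and 48.6% had a mean ratio above 0. NDUFA1, a small accessory subunit of the membrane arm, had processed signals of 48392, 60495, 55876 and 59361 in the parthenote pools and of 35125, 38040, 35067 and 33458 in the fertilised pools. All parthenote pools were above all fertilised pools. Its log2 ratio was 0.66 ± 0.15 (SD, n = 4, adjusted p = 0.0183), a fold of 1.58, and its 5 overlapping probes ranged from 0.64 to 0.67. NDUFB11, another accessory subunit of the membrane arm, had signals of 32508, 32158, 27736 and 24721 in parthenotes and of 19361, 21395, 20621 and 18717 in fertilised embryos. These groups did not overlap either, and the ratio was 0.54 ± 0.16 (SD, n = 4, adjusted p = 0.0277). NDUFS3, a core subunit of the arm that reaches into the matrix, had ratios of 0.46, 0.49, 0.39 and 0.35 on arrays 1 to 4, with a mean of 0.42 ± 0.06 (SD, n = 4, adjusted p = 0.0111). NDUFA2 was higher by 0.30 ± 0.07 (SD, n = 4, adjusted p = 0.0212), and all 5 of its probes passed the test. The share of all genes whose pools did not overlap is not given here. Statements on overlap, here and below, only describe the values.

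The other complex I calls were smaller. A transcript described as NDUFB1-like had a ratio of 0.24, NDUFA6 of 0.21, NDUFV2 of 0.19, NDUFS4 of 0.18 and NDUFB6 of 0.13, and each of these was positive on all arrays. NDUFA6 has the brightest complex I probe, and its probes did not behave alike: 2 of them were called at 0.21 and 0.18, and the other 3 had ratios from 0.03 to 0.06. NDUFV2 and NDUFS1 both carry iron-sulphur clusters. NDUFS1 had a ratio of -0.12 ± 0.12 (SD, n = 4, adjusted p = 0.238), the most negative of complex I, with negative values on all 4 arrays. NDUFA12, nearest to 0, had -0.01 ± 0.09 (SD, n = 4, adjusted p = 0.949). With normexp background correction and loess, 13 complex I subunits were higher and 0 were lower, although NDUFA6 lost its call at 0.13. Without array 1, 6 were higher, and without any one of the other arrays, 1 was. Among the 4 core subunits measured, 2 were higher, and among the 16 accessory subunits, 7 were higher.

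**Figure D3:**
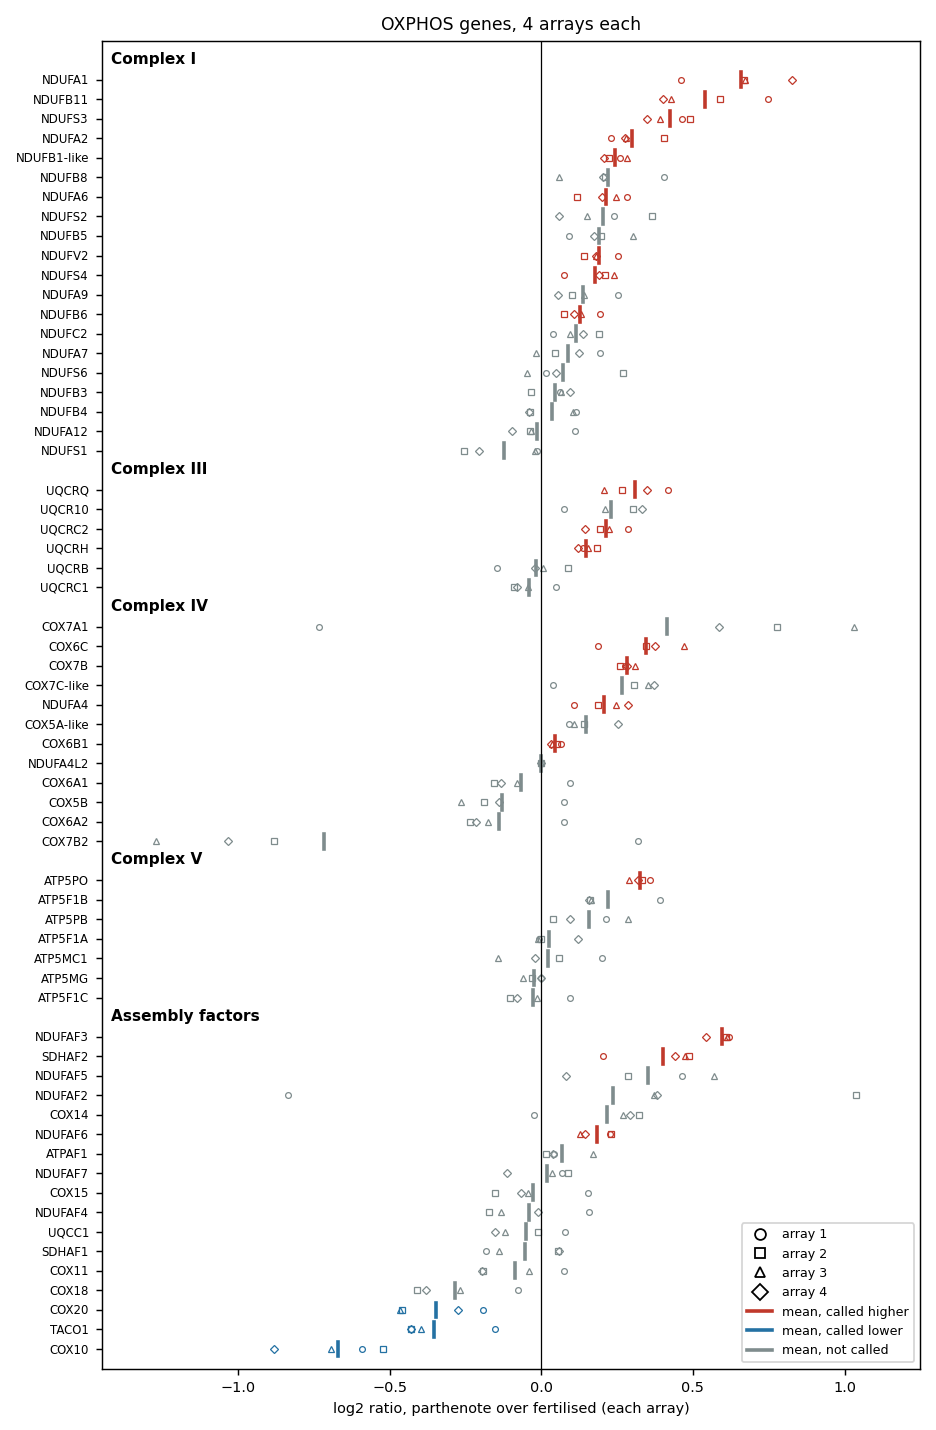
Log2 ratio of parthenote over fertilised on each of the 4 arrays (symbols) and its mean (bar) for all 62 genes, grouped by complex and coloured by the limma call at an adjusted p under 0.05. Complex I lies almost wholly right of 0, the 3 genes called lower are all complex IV assembly factors, and array 1 (circles) lies apart from the others for COX7A1, COX7B2 and NDUFAF2.

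In complex III, 3 of 6 subunits were higher (50%) and 0 were lower, beside 14.8% and 14.5% of genes well above background. UQCRQ, a small accessory subunit, had ratios of 0.42, 0.27, 0.21 and 0.35 on arrays 1 to 4, with a mean of 0.31 ± 0.09 (SD, n = 4, adjusted p = 0.0276). UQCRC2, a core protein, was higher by 0.21 ± 0.06 (SD, n = 4, adjusted p = 0.0256). UQCRH, the hinge protein, was higher by 0.15 ± 0.03 (SD, n = 4, adjusted p = 0.0146). The pools of the groups did not overlap for any of these genes. After normexp and loess, UQCRQ had 0.10 (adjusted p = 0.152) and UQCRH had 0.091 (adjusted p = 0.163), which left UQCRC2 as the 1 call in complex III. Without array 1 or 2, 1 subunit was called, and without array 3 or 4, 0 were. UQCR10, another accessory subunit, had 0.23 ± 0.12 (SD, n = 4, adjusted p = 0.0684), and 2 of its 5 probes passed the test. UQCRC1, the other core protein, had -0.04 ± 0.06 (SD, n = 4, adjusted p = 0.428). UQCRB, which encodes a ubiquinone-binding subunit, depended on the probe. Its brightest probe had -0.02 ± 0.10 (SD, n = 4, adjusted p = 0.894), while its 5 other probes, which overlap one another and include the one printed above, had ratios from 0.19 to 0.24, of which 4 passed the test. With the mean of all its probes, UQCRB had 0.18 (adjusted p = 0.0571).

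Complex IV had 4 of 12 genes higher (33.3%) and 0 lower, beside 14.8% and 14.5% of genes well above background. COX7B had processed signals of 63722, 68256, 69133 and 64330 in parthenotes and of 52649, 57026, 55798 and 52880 in fertilised embryos, without overlap. Its ratio of 0.28 ± 0.02 (SD, n = 4, adjusted p = 0.00543) varied little between arrays. COX6C had 0.35 ± 0.12 (SD, n = 4, adjusted p = 0.0348) on its brightest probe, which the array files place on another chromosome than its 5 other probes, and these ranged from 0.18 to 0.22 with 1 call. NDUFA4, first assigned to complex I and now counted with complex IV, had 0.21 ± 0.08 (SD, n = 4, adjusted p = 0.04). COX6B1 passed the test at 0.05 ± 0.02 (SD, n = 4, adjusted p = 0.0423), a difference that became -0.11 after normexp and loess. NDUFA4 lost its call there at 0.11 (adjusted p = 0.178), COX7B kept its call at 0.18, and in all 2 complex IV genes were higher and 2 were lower. Without array 1, 4 were higher and 2 were lower, and without array 2, 3 or 4, 1 was higher and 0 were lower. COX5B, by contrast, had -0.13 ± 0.15 (SD, n = 4, adjusted p = 0.286).

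The tissue isoforms of complex IV did not pass the test with all arrays. COX6A1 had -0.07 ± 0.11 (SD, n = 4, adjusted p = 0.469), or -0.23 (adjusted p = 0.0312) after normexp and loess, and COX6A2, its heart and skeletal muscle form, had -0.14 ± 0.14 (SD, n = 4, adjusted p = 0.256). COX7A1, the muscle form of subunit VIIa, had parthenote signals of 1326, 3533, 4412 and 3479 on arrays 1 to 4 and fertilised signals of 2206, 2063, 2158 and 2319. The parthenote pool of array 1 was thus below every fertilised pool and the other 3 were above all of them. COX7B2, a paralogue of COX7B known from testis, went the other way, with parthenote signals of 5997, 2135, 1681 and 2406 against 4813, 3935, 4058 and 4925. Each array was left out in turn, and without array 1 limma called COX7B2 (-1.06, adjusted p = 0.0432) and COX6A2 (-0.21, adjusted p = 0.0353) lower, while COX7A1 (0.80, adjusted p = 0.0652) and COX6A1 (-0.12, adjusted p = 0.0773) did not pass. In each of these genes array 1 had the opposite sign to the others, so leaving it out removed the contrary value. Without array 2, 3 or 4, 0 complex IV genes were called lower. NDUFA4L2 was not well above background in any channel, so no ratio is given for it. Of the isoform genes COX4I1, COX4I2, COX6B2, COX7A2, COX8A, COX8B and COX8C, no probe carried the name, and they were not analysed here.

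**Figure D4:**
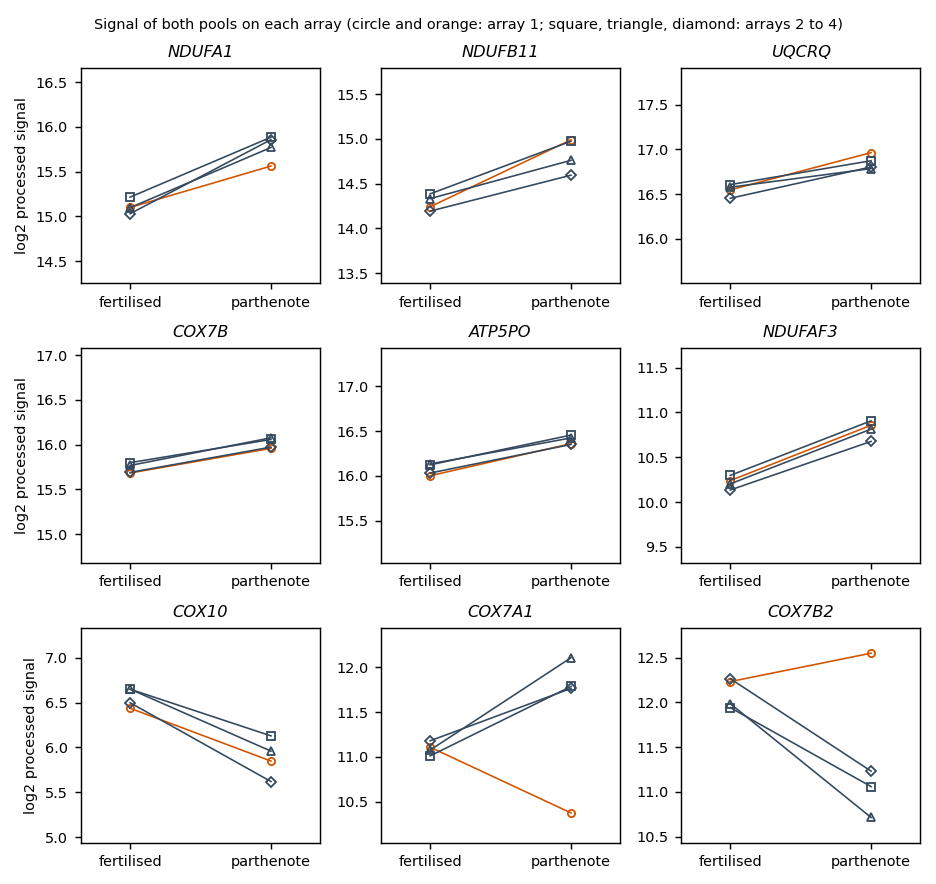
Log2 processed signal of the fertilised and the parthenote pool of each array, joined by a line, for 9 genes, each panel spanning the same range of log2 units. The 4 lines of the first 6 genes rise and those of COX10 fall, while array 1 (orange) runs against arrays 2 to 4 for COX7A1 and COX7B2.

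In complex V, 1 of 7 subunits was higher and 0 were lower, with a median ratio of 0.03. The share called higher, 14.3%, was near the 14.8% of genes well above background. After normexp and loess the median of complex V was -0.08, with 1 higher and 1 lower. Without array 1, 2 subunits were higher, and without array 2, 3 or 4, 1 was, with 0 lower each time. The median was then 0.034 to 0.079. ATP5PO, which encodes the stalk protein that holds the catalytic head in place, had ratios of 0.36, 0.33, 0.29 and 0.32, with a mean of 0.33 ± 0.03 (SD, n = 4, adjusted p = 0.00602), and all 5 of its overlapping probes were called. After normexp and loess it had 0.21 and was still called. The catalytic subunit ATP5F1B was positive on all 4 arrays without overlap of the groups, at 0.22 ± 0.12 (SD, n = 4, adjusted p = 0.0748), and ATP5F1A had 0.03 ± 0.06 (SD, n = 4, adjusted p = 0.631). ATP5MG, a membrane subunit, lay nearest to 0 with -0.02 ± 0.03 (SD, n = 4, adjusted p = 0.348) on its brightest probe. Its 3 other probes had -0.08 to -0.13, and after normexp and loess the brightest had -0.28 and was called lower (adjusted p = 0.0105). Of the ATP synthase genes that the rule missed, ATP5PD had 0.24 (adjusted p = 0.0477) and ATP5MC3 had -0.21 (adjusted p = 0.016), in opposite directions. ATP5MJ, another of them, had 0.21 and was positive on all arrays, but did not pass the test (adjusted p = 0.0923). Of complex II, SDHD was measured outside the rule and had 0.02 ± 0.18 (SD, n = 4, adjusted p = 1).

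Of the 17 assembly factors, 3 were higher and 3 were lower (17.6% each), near the shares of all genes well above background. NDUFAF3, which acts early in the assembly of complex I, had signals of 1855, 1920, 1801 and 1637 in parthenotes and of 1209, 1258, 1178 and 1124 in fertilised embryos. The groups did not overlap, and its ratio was 0.60 ± 0.04 (SD, n = 4, adjusted p = 0.00429). NDUFAF6, another complex I factor, was higher by 0.18 ± 0.05 (SD, n = 4, adjusted p = 0.0283), and SDHAF2, which helps to insert flavin into complex II, by 0.40 ± 0.13 (SD, n = 4, adjusted p = 0.0329). COX10, the enzyme that makes haem O for complex IV, had signals of 57.6, 70.0, 62.2 and 49.2 in parthenotes and of 86.7, 100.5, 100.6 and 90.5 in fertilised embryos. Every parthenote pool was below every fertilised pool, and the ratio was -0.67 ± 0.16 (SD, n = 4, adjusted p = 0.019), or 1.59-fold lower. After normexp and loess the ratio was -0.32 and was still called (adjusted p = 0.041). TACO1, an activator of the translation of mitochondrial COX1, had -0.35 ± 0.13 (SD, n = 4, adjusted p = 0.0413), and COX20, a chaperone of COX2, had -0.35 ± 0.14 (SD, n = 4, adjusted p = 0.0439). The pools overlapped for both, and all 4 arrays were negative. Of the 5 probes of each, 2 passed the test, and with its probes averaged COX20 was not called (adjusted p = 0.0622).

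Grouped by the complex that they serve, 0 of the 7 complex IV factors were higher and 3 were lower, with a median ratio of -0.28, while 2 of the 6 complex I factors were higher and 0 were lower, with a median of 0.21. COX18, a translocase for COX2, had -0.28 ± 0.15 (SD, n = 4, adjusted p = 0.0761), COX11 had -0.09 and COX15 had -0.03. COX14 was the exception with 0.22 ± 0.16 (SD, n = 4, adjusted p = 0.144). The difference between the sets of factors was not tested. The complex I factors had 1 call after normexp and loess or without any one array. Their median was 0.13 after normexp and loess and 0.085 without array 2. Without any one of arrays 2, 3 and 4, 0 complex IV factors passed the test as lower. Without array 1, limma called 2 of them lower and 1 higher, COX14 (0.29, adjusted p = 0.0253).

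**Figure D5:**
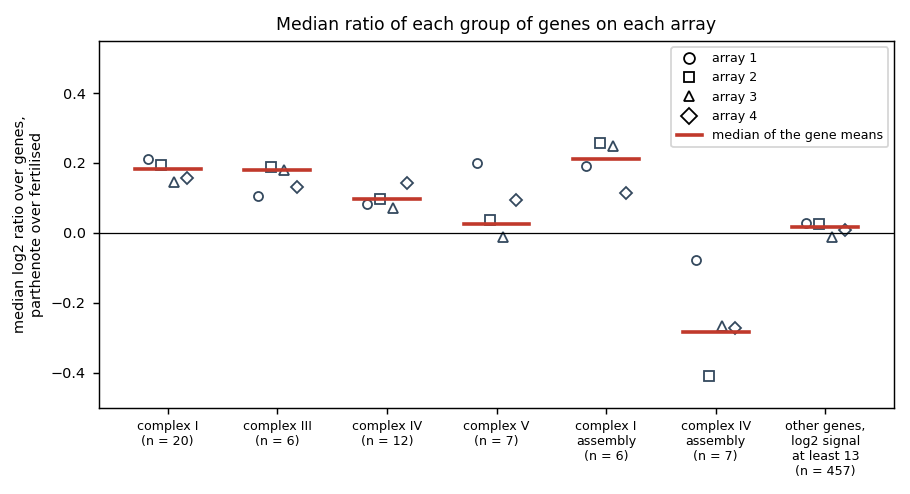
Median log2 ratio of parthenote over fertilised on each array (symbols) and over the gene means (red bar) for the complexes, for the assembly factors of complexes I and IV, and for 457 other named genes as bright as most members. With the deposited normalisation all 4 complexes lie above the other bright genes on each array, complex V on array 3 only barely, and the complex IV factors lie below 0 on all 4.

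By the positions in the array files, 3 members lay on the X chromosome, NDUFA1, NDUFB11 and COX7B, and all 3 were higher. Without array 2, limma no longer called NDUFA1 (adjusted p = 0.087) and NDUFB11 (adjusted p = 0.114), while COX7B still passed (adjusted p = 0.0326). Without array 3 or without array 4, 1 complex I subunit was called, so NDUFA1 and NDUFB11 did not both pass there either. Of the 5 overlapping NDUFA1 probes the files place 3 on X and 2 on chromosome 8, so this position is uncertain. A parthenote carries maternal chromosomes only. Of the 200 named genes on X that were well above background, 21.5% were higher and 11% were lower, against 14.8% and 14.6% of 5271 such genes with a position elsewhere. Without the members on X, 13 of 47 placed members were higher and 3 were lower. The part of sex or of X dosage in these values was not tested.

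Other genes of the pathway were counted by list. A list of 8 genes held carriers of adenine nucleotides, phosphate and protons, channels of the outer membrane and the ATP synthase inhibitor ATP5IF1. Of these 8, 0 were higher and 5 were lower (62.5%), with a median ratio of -0.18. Of all named genes well above background, 14.8% were higher and 14.5% were lower. SLC25A4, which exchanges ADP for ATP, had -0.68 ± 0.23 (SD, n = 4, adjusted p = 0.0347), VDAC3 had -0.58 ± 0.18 (SD, n = 4, adjusted p = 0.03) and VDAC1 had -0.19 ± 0.03 (SD, n = 4, adjusted p = 0.0115). Without array 2 or without array 4, 0 of the 8 passed the test in limma. UCP1, another of the 8, was well above background on 1 array and is given no ratio. Of 15 citric acid cycle genes, 3 were higher (20%, near the share of all genes well above background) and 0 were lower. Without array 1, 1 was higher, and without array 2, 3 or 4, 0 were, while the ratio of the processed signals called 5 higher and 2 lower, and normexp and loess 6 and 1. Citrate synthase (CS) had 0.37 ± 0.08 (SD, n = 4, adjusted p = 0.0174), and SUCLG2, a succinyl-CoA ligase subunit, had 0.53 ± 0.20 (SD, n = 4, adjusted p = 0.0428).

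The next 3 lists are small, and their counts are to be read against the 14.8% and 14.5% of genes well above background. Of 9 genes that control the entry of pyruvate, 3 were higher (33.3%) and 1 was lower (11.1%). PDK3, a kinase that inactivates pyruvate dehydrogenase, had 0.75 ± 0.13 (SD, n = 4, adjusted p = 0.0131), and PDHA1, a subunit of that enzyme, had 0.22 ± 0.09 (SD, n = 4, adjusted p = 0.0465). The array files place both PDK3 and PDHA1 on the X chromosome. PDK4 and PDP2 were called too, but PDK4 was not well above background on any array and PDP2 only in 2 fertilised pools, so no fold is given. Of 14 genes of electron carriers, 1 was higher (COQ8A, 0.14) and 1 was lower (COQ5, -0.28), or 7.14% each, and both act in ubiquinone synthesis. Of 10 genes of mitochondrial biogenesis and mitochondrial DNA, 2 were higher (20%) and 0 were lower. TFB2M, a factor that starts mitochondrial transcription, had 0.53 ± 0.18 (SD, n = 4, adjusted p = 0.0356), and SSBP1, which binds single-stranded mitochondrial DNA, had 0.13 ± 0.05 (SD, n = 4, adjusted p = 0.0396). Without array 3 or without array 4, 0 genes of these last 3 lists passed the test as higher.

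Markers of other cell types were counted in the same way. These small counts, too, stand beside 14.8% higher and 14.5% lower among all named genes well above background. Of 3 genes of the secretory epithelium of oviduct and uterus, 3 were higher in parthenotes, and the sum of their signals was 8041, 6318, 27840 and 14559 in the parthenote pools against 1195, 898, 2547 and 1207 in the fertilised pools, with OVGP1 the brightest. Of 7 genes of motile ciliated cells, 4 were higher, with sums of 487, 245, 681 and 472 against 186, 118, 114 and 143. Only 2 of the 7 were well above background for both dyes on all arrays, and the 4 called genes were not among them. The brightest gene of this list was SPAG6, which was not called, and FOXJ1, the regulator that defines these cells, was not well above background. Of 6 genes of heart and skeletal muscle, 2 were higher, MYH7 and MYL3, with sums of 24527, 33636, 33702 and 30194 against 22361, 18679, 20210 and 18891, and MYH7 was the brightest. MYH6, TNNC1 and ACTC1 were not called and, like COX7A1, were negative on array 1 and positive on arrays 2 to 4. CKM was negative on all arrays. Of 4 leukocyte genes, 2 were higher, with sums of 303, 321, 386 and 331 against 165, 147, 152 and 148, with CD14 the brightest and PTPRC not well above background. Of 6 trophectoderm genes, 1 was higher (KRT8) and 1 was lower (GATA2), or 16.7% each, and 4 were negative on all arrays, with a median ratio of -0.28. Their sums were 29011, 42464, 40224 and 33950 against 31110, 32805, 31792 and 29192, with KRT8 the brightest. Of 3 epiblast genes, 1 was higher (POU5F1, the brightest) and 0 were lower, while LIN28A had -0.22 and was negative on all arrays. The epiblast sums were 14632, 12107, 12719 and 11810 against 11532, 10703, 11389 and 10359. Of 4 primitive endoderm genes, 0 were higher and 1 was lower (AFP, not well above background in parthenotes), with sums of 553, 1293, 634 and 669 against 1487, 1388, 1218 and 894 and APOA1 the brightest. Without array 1, 2, 3 or 4, the genes called higher numbered 2, 1, 1 and 1 for the secretory list, 1, 1, 0 and 0 for the ciliated list, 3, 0, 0 and 0 for the muscle list, and 2, 0, 1 and 0 for the leukocyte list. The part of these cell types in the OXPHOS ratios was not tested.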

How the data were processed

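Gene expression was measured on 4 Agilent rabbit arrays with 2 colours. The authors read the scans with Agilent's Feature Extraction at its default settings, and version 10.10.1.1 is named in the submitters' processing notes. The deposited mean and background intensities are not normalised. The deposited processed intensity has its background subtracted and its dyes normalised within the array, and is called signal here. The log10 ratio of the authors is Cy5 over Cy3, set to 0 where neither channel was usable, and their value table of the series holds it with the sign turned, so that this alternative says nothing about stability. No genome build is given in the sources used here.

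Ratios were turned to log2 of parthenote over fertilised. Controls were dropped, spots marked as outliers were treated as missing, and replicate spots were averaged by probe. For the 43595 probes measured on 3 or more of the 4 arrays, limma (version 3.58.1, run under R 4.3.3) tested the mean ratio against 0 by its moderated statistic, on both sides, with Benjamini-Hochberg adjustment over all these probes and a threshold of 0.05. On each array, 25805 to 26339 parthenote spots and 27508 to 27835 fertilised spots exceeded background by the scanner software's criterion. Precision is limited by having 4 arrays. The ratio pairs the pools of an array. Deviations from the group means correlated by 0.601 to 0.651 between the channels of an array and by -0.211 to -0.205 with other arrays. The pools are the replicates.

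Of 43603 probes, 21946 were given a gene symbol from the RefSeq table of the assembly mOryCun1.1, used for names only. The overlapping probes of a gene are not independent. Genes named in the text were, within each complex, up to 4 with the largest absolute ratio past the test and of 1 sign on all arrays, the brightest, the one nearest to 0, isoform pairs and up to 3 assembly factors. Others were named after their values were seen. Members and lists were chosen with earlier results of these data known. Alternatives were another background correction and normalisation, spot and probe filters, the methods' t-test, unpaired channels, an intensity trend, base composition, each replicate left out, and other ways to count probes. Python 3.11.15, numpy 2.4.6, pandas 2.3.3 and matplotlib 3.10.9 were used for summaries and plots.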

Additional observations from a re-analysis of the deposited data

Results flagged for a closer look

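In 7 of the 62 genes, the ratio of 1 array stood apart from the other 3, with a gap to its nearest neighbour that exceeded Dixon's critical value for 4 samples. Chance alone marks about 1 in 20 groups. On array 1 these were ATP5F1B with a log2 ratio of 0.39, SDHAF2 with 0.20, COX14 with -0.024 and TACO1 with -0.15. On array 4 they were ATP5F1A with 0.12 and NDUFAF3 with 0.54, and on array 3 it was ATPAF1 with 0.17. The gaps of COX7A1, COX7B2 and NDUFAF2 stayed below that value, although their ranges were wide.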

How the results depend on the processing

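The direction of the OXPHOS ratios rested on a normalisation that follows the signal. With median centring in its place, 1 gene was higher (NDUFA4L2, which was not well above background) and 57 were lower, with a median of -0.66. Most genes moved the same way: 3.77% of all named genes well above background were higher and 68.4% were lower, with a median of -0.39. The ratio was then -0.32 for NDUFA1, -0.30 for NDUFB11, -0.41 for NDUFS3, -0.64 for NDUFA2, -0.85 for NDUFA6, -0.97 for UQCRQ, -0.60 for UQCRC2, -0.91 for UQCRH, -0.75 for COX6C, -0.81 for COX7B, -0.90 for NDUFA4 (-0.895), -1.17 for COX6B1, -0.81 for ATP5PO, -0.034 for NDUFAF3, -0.25 for SDHAF2 and -0.22 for COX7A1. With normexp and loess, 6 genes were lower, the median was 0.11, NDUFA12 had 0.031 and COX6B1 had -0.11. There 14 of the 20 genes called higher and 2 of the 3 called lower kept their calls. NDUFA6, UQCRQ, UQCRH, NDUFA4, COX6B1 and NDUFAF6 lost theirs, and ATP5MG and COX6A1 were called lower. With repaired background spots, 8 were lower, the median was 0.10, NDUFA12 had 0.024 and COX6B1 had -0.12. The methods' t-test called 9 higher and 1 lower. With no replicate block, so that the pairing by array was ignored, the median was 0.14, with 14 higher and 3 lower. The ratio of the processed signals gave a median of 0.14, and an intensity trend left 1 lower. With base composition regressed out, the median was 0.11 and NDUFA12 had 0.013. With each gene's probes averaged, the median was 0.12, UQCRB had 0.18, and NDUFA6, NDUFS4, COX6C, NDUFA4 and COX20 lost their calls. Counting each probe gave 59 higher and 5 lower. Structural subunits alone gave 0 lower and a median of 0.15, and genes of log2 signal at least 13 gave 1 lower and 0.18. Without 1 replicate, between 4 and 16 genes were higher and between 0 and 4 lower, with medians of 0.118 to 0.124. UQCRB then ranged from -0.054 to 0.024 and NDUFA12 from -0.056 to 0.014. Of 431 comparisons of the 24 genes named by rule, 323 kept direction and side of the threshold, 70 lost the call, 14 gained it and 24 turned sign. The cause of these changes was not tested. The 323 include the value table of the series and settings that kept marked spots, left out saturated probes or needed 2 arrays. Each of those settings gave the same 20 higher, 3 lower and median of 0.13 as the main setting. They could show little change, so the tally overstates stability. Among the members, NDUFA4L2 alone was not well above background. Others met that criterion with low signals, such as COX10, TACO1 and SDHAF1. The signals of COX10 were 49.2 to 100.6, and its ratio moved from -0.67 to -0.32 with normexp and loess.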

Other observations

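Array 1 had the opposite sign to all other arrays in 15 of the 62 OXPHOS genes (24.2%), and arrays 2, 3 and 4 in 1, 2 and 2. Among the 6731 named genes well above background, array 1 stood alone in this way in 12.1%, and arrays 2, 3 and 4 in 6.37%, 6.54% and 4.46%. NDUFAF2, with ratios of -0.84, 1.04, 0.37 and 0.38 on arrays 1 to 4, was among the 15 genes.

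Outside the member rule, 3 probes were placed on mitochondrial DNA. Their log2 ratios were -0.28 (adjusted p = 0.0677), 0.26 (adjusted p = 0.0265) and 0.24 (adjusted p = 0.559) in limma, and 1 of them was called, as higher. The third was well above background on 1 array in each channel.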
